A study of Caenorhabditis elegans with 4 samples.

Results

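The regions described here are the optimal peaks of UNC-62 ChIP-seq whose summits lay in intergenic sequence, 360 of 1037 optimal peaks. A peak was a member when its summit fell outside the body of every protein-coding gene and not within 1000 bp upstream of any protein-coding transcript start in WBcel235, the genome build that browsers call ce11. Among optimal peaks membership used position alone, and signal, replicate support and sequence played no part in it. The optimal list itself was derived from the same replicates, so signal and support varied only among peaks that had passed its cut. Of the other optimal peaks, 429 had promoter summits (within that 1000 bp), 207 had intronic summits, 19 lay in 5' UTRs, 14 in coding exons and 8 in 3' UTRs.

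ChIP-seq, in which DNA bound by a protein is precipitated with an antibody and sequenced, was performed on whole L3 larvae of Caenorhabditis elegans, pooled male and female. All larvae were of strain OP600, which has the unc-119 mutation ed3 and the integrated transgene wgIs600, made of unc-62 fused to TY1, EGFP and FLAG tags and of an unc-119 rescue gene. There was 1 group of 4 biological replicates, and no untagged or mutant group was analysed here. The labels of replicates 1 and 2 name a size range of 150 to 350 bp and the CGC, a worm stock center, while those of replicates 3 and 4 name sonication with a microtip and the Snyder laboratory. Larvae were taken whole, so the tissue in which a region was bound cannot be told apart, and the tagged protein came from a transgene added to the genome.

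UNC-62 is the nematode member of the MEIS and Homothorax family, homeodomain proteins of the TALE class that bind DNA alone or in complexes with PBX-type and Hox homeodomain proteins. In C. elegans it acts in embryonic and larval development and in adult intestine. Relatives in flies and mammals bind both near promoters and at distant regulatory elements, and the family's core site reads TGACAG, while PBX and Hox proteins together bind composite sites such as TGATTGAT.

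Sequences of 101 bases centred on the summit are shown for a few members, to let the motifs counted later be seen in place. They were read from the RefSeq WBcel235 (ce11) assembly and are given 5′ to 3′ on the plus strand. In the first set, made of members that hold TGACAG together with TGATNNAT (N is any base), capitals mark TGACAG, TGATTGAT and TGATNNAT on either strand, so that CTGTCA, ATCAATCA and ATNNATCA are the same sites read from the other strand. TGATTGAT is a special case of TGATNNAT, and matches may overlap. The combination occurred in 5 members, of which 4 are shown. The windows are chrV:13656513-13656613 near lpin-1, chrV:9218346-9218446 near pacs-1, chrX:17419893-17419993 near osm-11 and chrIV:5834366-5834466 near C06E7.2.
lpin-1: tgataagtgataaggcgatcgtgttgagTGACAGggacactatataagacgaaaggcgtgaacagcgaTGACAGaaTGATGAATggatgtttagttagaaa
pacs-1: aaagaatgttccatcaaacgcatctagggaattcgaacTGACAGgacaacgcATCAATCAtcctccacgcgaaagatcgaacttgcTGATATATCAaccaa
osm-11: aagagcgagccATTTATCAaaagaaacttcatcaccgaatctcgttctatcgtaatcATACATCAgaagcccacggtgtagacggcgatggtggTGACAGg
C06E7.2: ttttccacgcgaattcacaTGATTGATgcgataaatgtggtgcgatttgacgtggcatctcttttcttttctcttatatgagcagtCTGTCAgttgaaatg

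The next set shows 5 of the 20 strongest members that hold TGACAG or TGATTGAT, with the same marking, and a window upstream of unc-62 itself. They are chrX:10766180-10766280 near sma-9, chrX:1093234-1093334 near pigx-1, chrII:10851286-10851386 near M106.2, chrX:11094144-11094244 near W02H3.3, chrX:11937476-11937576 near F55G7.5 and chrV:4495183-4495283 near unc-62. In sma-9, pigx-1 and M106.2 the core site lay within 10 bp of the summit.
sma-9: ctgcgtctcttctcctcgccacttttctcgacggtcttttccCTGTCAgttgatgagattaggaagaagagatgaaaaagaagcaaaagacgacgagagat
pigx-1: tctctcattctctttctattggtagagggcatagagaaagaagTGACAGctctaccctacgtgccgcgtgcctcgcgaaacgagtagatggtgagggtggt
M106.2: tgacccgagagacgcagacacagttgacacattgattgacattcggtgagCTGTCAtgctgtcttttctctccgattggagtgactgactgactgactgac
W02H3.3: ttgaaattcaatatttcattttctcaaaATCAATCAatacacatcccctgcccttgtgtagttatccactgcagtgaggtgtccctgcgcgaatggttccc
F55G7.5: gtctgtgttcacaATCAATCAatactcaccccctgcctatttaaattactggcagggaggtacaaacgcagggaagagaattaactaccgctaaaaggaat
unc-62: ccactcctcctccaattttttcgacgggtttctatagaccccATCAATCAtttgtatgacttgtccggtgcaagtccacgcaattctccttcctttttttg

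A last set, chosen after the values were seen, shows members with other sequence features. Capitals mark GAGAGAGA (TCTCTCTC on the other strand) in 2 windows of the gap upstream of egl-27, chrII:6825884-6825984 and chrII:6827567-6827667. In the 2 windows that lie in tRNA genes, chrX:14063958-14064058 and chrX:13307033-13307133, capitals mark GTTCGANNC, the letters of the B box, an internal promoter element of tRNA genes.
egl-27 gap, higher signal: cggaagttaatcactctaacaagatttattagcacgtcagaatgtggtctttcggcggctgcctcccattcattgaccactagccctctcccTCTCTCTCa
egl-27 gap, lower signal: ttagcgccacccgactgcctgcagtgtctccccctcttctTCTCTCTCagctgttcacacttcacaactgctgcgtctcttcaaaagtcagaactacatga
tRNA gene nearest lgc-21: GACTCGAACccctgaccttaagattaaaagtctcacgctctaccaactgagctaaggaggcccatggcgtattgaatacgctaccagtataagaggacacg
tRNA gene nearest srd-43: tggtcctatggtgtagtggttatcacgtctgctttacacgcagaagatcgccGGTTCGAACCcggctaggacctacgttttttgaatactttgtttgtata

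Intergenic and promoter regions reached the optimal list at rates that differed by less than 1 percentage point, a description with no test. The merged list, which the authors made from all 4 replicates, held 18556 regions, of which 1037, or 5.59%, were in the optimal list. Among 4971 merged regions with intergenic summits 7.24% were optimal, beside 7.81% of promoter, 4.08% of intronic and 0.658% of coding-exon regions. Members' signal, the authors' value per peak, ran from 37.3 to 204.7 with a median of 49.8. Promoter peaks had a median of 51.9 and intronic peaks of 49.4, so the 3 classes lay in the same range. Members were a median of 356 bp wide, and 16 were narrower than that.

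The strongest member lay near sma-9, which encodes a zinc-finger protein of the Schnurri type in body-size signalling. Its signal was 204.7, its summit lay 3052 bp upstream of the nearest sma-9 start, and it ranked 12, 6, 36 and 19 in replicates 1 to 4. The next was nearest casc-3, with a signal of 197.0, a summit 1145 bp upstream and ranks of 5, 12, 58 and 148. The member near W02H3.3 followed with 189.7, and its ranks were 8, 35, 17 and 177. All of these were high in every replicate, with the poorest rank of each in replicate 3 or 4.

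Of the next 5 members by signal, those near egl-27 (ranks 17, 22, 49 and 55), sup-26 (21, 18, 24 and 56) and M106.2 (31, 13, 43 and 79) were also high in every replicate, whereas a pair was low in replicate 4. The member nearest pigx-1 had a signal of 166.1 and ranked 10, 20 and 60 in replicates 1 to 3 but 6172 in replicate 4. At unc-62 itself, the member 5985 bp upstream had a signal of 163.3 and ranks of 14, 8, 62 and 4328. A member 2228 bp upstream of unc-62, whose window with TGATTGAT is printed above, had a signal of 100.5 and ranks of 85, 24, 306 and 17715. The members near pigx-1 and those 2 near unc-62 were thus high in 3 replicates and low in replicate 4. A further member of the same gap, with a signal of 43.7, ranked 1346, 558 and 391 and was not listed in replicate 4. The transgene of this strain also holds unc-62 sequence, and its part in the signal at unc-62 was not tested.

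Other strong members lay near genes of varied roles. They included sup-26, which encodes an RNA-binding protein (signal 155.6), lpin-1, a lipin of fat metabolism (115.9), cmd-1, which encodes calmodulin (107.9), and mtm-3, a myotubularin phosphatase gene (112.6). The member near ugt-50, a UDP-glucuronosyltransferase gene, had a signal of 121.0. The others of the 20 strongest were nearest M106.2, ZK899.6, F20B6.9, ndx-1, K02D3.1, F55G7.5, srlf-26, pacs-1, C17G10.7 and egl-27. Of these 20 members, 17 overlapped a region of rank 1037 or better in all 4 replicates and 3 in 3 replicates. Of the 20, 8 were on the X chromosome and 14 lay upstream of their nearest start.

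**Figure D1:**
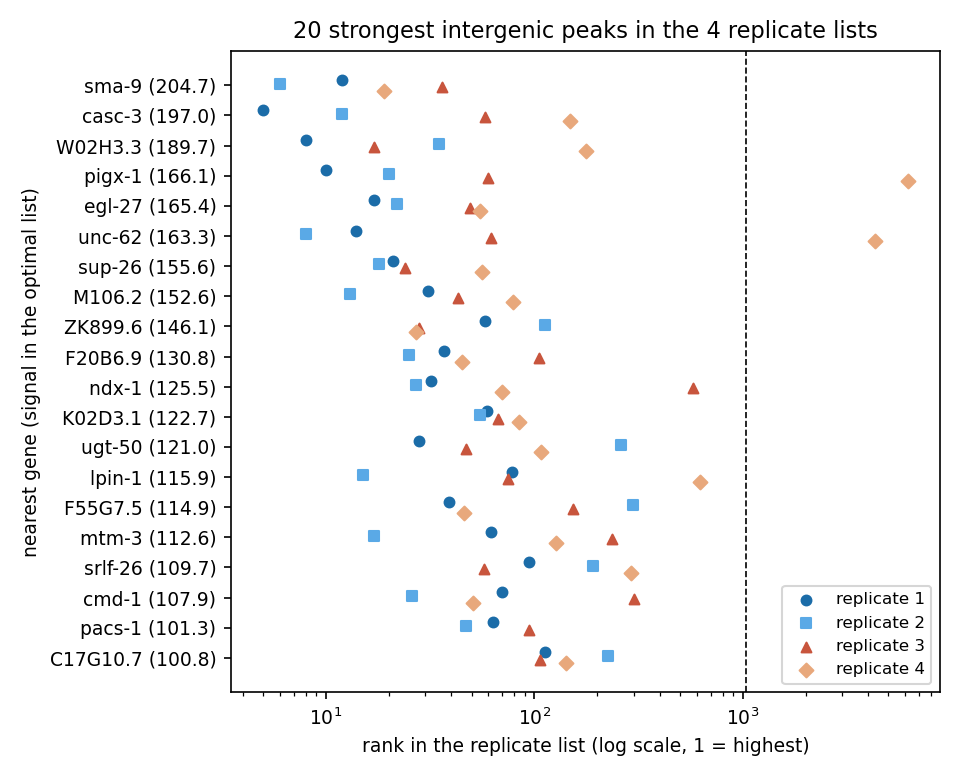
Rank of the best overlapping region in each replicate list (log axis, 1 is the highest signal) for the 20 strongest intergenic peaks, named by nearest gene with the signal in parentheses; the dashed line marks rank 1037. Most points lie left of the line, and those right of it are replicate 4 at pigx-1 and unc-62; pacs-1 has no point for replicate 4, where it was not listed.

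Members were not equally visible in the 4 replicates. A replicate was counted as supporting a peak when at least 1 bp of it was covered by one of that replicate's 1037 highest-signal regions. Replicate 1 supported 77.8% of members, replicate 2 59.2%, replicate 3 48.3% and replicate 4 30.8%, a mean of 54.0% ± 19.7 (SD, n = 4). Over all 1037 optimal peaks the shares were 78.9%, 59.8%, 51.5% and 32.2%, so this order was not particular to members. Both replicates of the first label set were above both of the other set, and what of this follows from the preparation was not tested. All 360 members were listed at some rank in replicate 1, 344 in replicate 2, 331 in replicate 3 and 305 in replicate 4, with median ranks of 518.5, 652.5, 933 and 2492.

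All 4 replicates supported 53 members, or 14.7%, while the same held for 14.1% of all optimal peaks. A further 86 members had 3 supporting replicates, 103 had 2, 102 had 1 and 16 had none. The median signal was higher with more support, at 38 with none, 41.1 with 1, 48.2 with 2, 61.9 with 3 and 90.1 with 4. The optimal list was derived from the same replicates, so this relation is a description. Support by all 4 replicates did not differ detectably from that of promoter peaks (13.5%; odds ratio 1.10, 95% interval 0.72 to 1.68) or intronic peaks (14%; odds ratio 1.06, interval 0.63 to 1.80).

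When each replicate's own 1037 highest nuclear regions were classified by the same rule, 34.8%, 31.6%, 32.0% and 28.9% had intergenic summits in replicates 1 to 4, a mean of 31.8% ± 2.41 (SD, n = 4). The 4 shares lay close together, with replicate 4 lowest. The optimal list had 34.7%.

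Summit sequences were richer in GC than their surroundings, and some held letters of the sites of MEIS, PBX and Hox proteins: 91 of 360 members held TGACAG or TGATNNAT, and 209 held none of the 8 motifs searched. Median GC content was 46.5% in the 101 bases at the summit and 34.7% in windows of equal length centred 250 bp to the higher-coordinate side. The rise was of similar size at promoter peaks (48.5% and 35.6%) and smaller at intronic peaks (46.5% and 38.6%). A total of 8 sequence motifs were searched on both strands, and each member's summit window was compared with its own flanking window by an exact McNemar test, adjusted over the 8 motifs with the Benjamini-Hochberg method. Peaks are not replicates of the larvae, so values from each replicate's own regions are given beside these tests.

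The MEIS core TGACAG was in 49 summit windows (13.6%) and 14 flanking windows (3.89%), 3.5-fold more often (adjusted p = 3.07e-05, exact McNemar test). The centre of the motif lay within 10 bp of the summit in 17 of these 49 members and within 25 bp in 32. These counts use the match nearest the summit in a window of 50 bp each side. Motifs placed evenly in that window would also often lie this close, and the share to expect was not computed. The motif was in 6.09% of the 4611 other intergenic regions of the merged list and in 3.43% of all windows of this length in qualifying intergenic sequence. In the intergenic regions of replicates 1 to 4 it was in 11.4%, 12.8%, 9.64% and 6.67% of summit windows, beside 3.05%, 3.05%, 3.16% and 3.67% of windows on both flanks. Every replicate was thus higher at the summit, in both label sets, and the mean difference was 6.89 points ± 2.92 (SD, n = 4; exact sign-flip permutation p = 0.13, two-sided, the smallest that 4 replicates allow). As replicates come from 1 strain and 1 stage, such p-values cover the spread between these samples.

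TGATTGAT, a composite PBX and Hox site, was in 19 summit and 2 flanking windows (5.28% and 0.556%; adjusted p = 5.90e-04, exact McNemar test). The ratio was 9.5, with a 95% counting interval of 2.29 to 84.1, since so few flanks held it. In replicates 1 to 4 it was in 5.54%, 4.57%, 2.11% and 2.00% of intergenic summit windows and in at most 0.753% of flanks. All replicates were higher at the summit, and replicates 1 and 2 were higher than 3 and 4. The looser TGATNNAT, which includes those 19 members, was in 47 summit and 33 flanking windows and did not pass the test (adjusted p = 0.137, exact McNemar test). In the replicates' own regions it was higher at the summit than on both flanks in 4 of 4, by 4.74 points ± 2.96 (SD, n = 4). TGACAG or TGATNNAT was in 91 members and both in 5, where 6.4 would hold both if the motifs fell independently.

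Of the motifs of other factors, GAGAGAGA was in 42 summit and 7 flanking windows, 6-fold more often (adjusted p = 1.42e-06, exact McNemar test). It was in 11.7% of members, beside 2.78% of the other intergenic regions and 0.828% of qualifying windows. Promoter peaks held GAGAGAGA in 7.69% (odds ratio 1.58, adjusted p = 0.185, Fisher's exact test). Intronic peaks held it in 10.6% (odds ratio 1.11, adjusted p = 0.944, Fisher's exact test). Its share was 14.2% among the 261 autosomal members and 5.05% among the 99 on X, given without a test. In replicates 1 to 4 it was in 11.6%, 8.54%, 7.53% and 7.33% of summit windows and in 1.67% to 2.86% of flanks.

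CACGTG, the E-box bound by many bHLH proteins, was in 16 summit and 3 flanking windows, a ratio of 5.33 with a counting interval of 1.53 to 28.6 (adjusted p = 0.00470, exact McNemar test). Against the flank on the other side the ratio was 1.45 (adjusted p = 0.485, exact McNemar test), so the call rests on the side chosen. In the replicates' own regions, against both flanks, CACGTG was higher at the summit in 4 of 4, by 2.00 points ± 0.245 (SD, n = 4; exact sign-flip permutation p = 0.13, the smallest possible). TAATTA, the AT-rich core of many homeodomain sites, ran the other way, with 2 summit and 14 flanking windows, a ratio of 0.143 with an interval of 0.0158 to 0.622 (adjusted p = 0.00669, exact McNemar test). It was lower at the summit in all 4 replicates, by 4.17 points ± 0.454 (SD, n = 4). The GC content of the windows moves with this motif, and summit and flank windows differed in it for every motif compared. The part of GC content in the results of this and the other motifs was not tested. The motif TGATAA of factors such as the intestinal ELT proteins (23 and 38 windows) and GTTCGANNC (9 and 6) did not pass (adjusted p = 0.0836 and 0.581, exact McNemar test), although TGATAA passed against the flank on the other side (ratio 0.479, adjusted p = 0.00420, exact McNemar test) and with promoter limits of 500 and 2000 bp (ratio 0.5 each, adjusted p = 0.00654 and 0.0298, exact McNemar test). In the replicates' own regions TGATAA was lower at the summit in 4 of 4, with a mean difference (summit minus flanks) of -2.91 points ± 1.65, and GTTCGANNC was higher in 2 of 4, with a mean of -0.36 points ± 0.864 (SD, n = 4).

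Among members supported by every replicate but one left out, 58 to 110 peaks, the flank ratio of TGACAG was 7 to 12. It passed without replicate 2, 3 or 4 (adjusted p = 0.0334, 0.0273 and 9.69e-04, exact McNemar test) and missed without replicate 1 (0.0508). In these smaller sets TGATTGAT, with ratios of 3 to 8, and GAGAGAGA, with 3.5 to 4.5, no longer passed. CACGTG, with ratios of 3 to 5, and TAATTA, with no summit window, also no longer passed. In the 171 members above the optimal list's median signal, TGACAG (ratio 6) and GAGAGAGA (5.25) passed (adjusted p = 8.74e-05 and 0.00364, exact McNemar test). With windows of 25 bp on each side, TAATTA had a ratio of 0.25 and did not pass (adjusted p = 0.146, exact McNemar test).

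**Figure D2:**
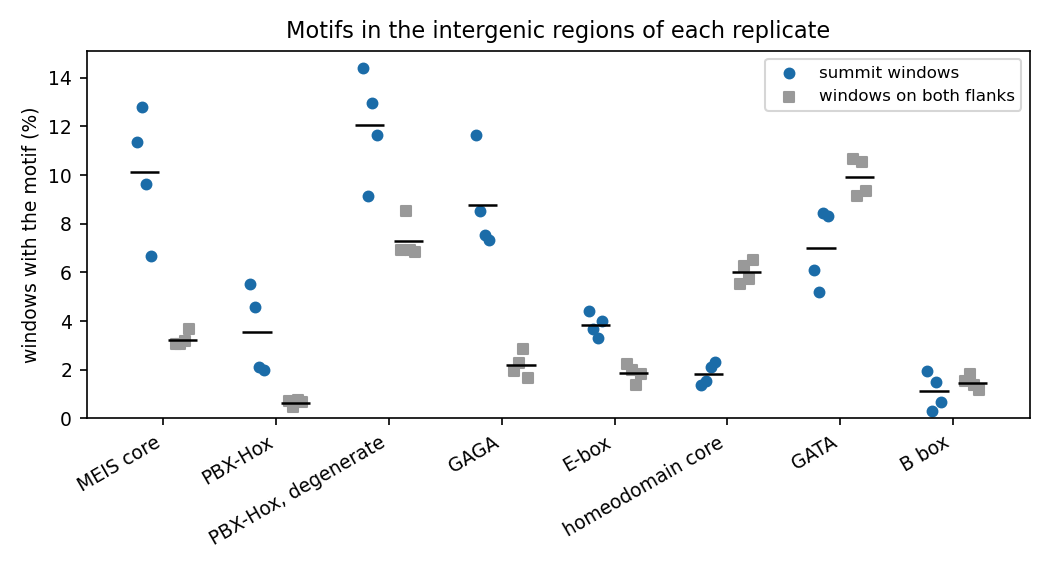
Percent of 101-base windows with each of 8 motifs at the summits (circles) and on both flanks (squares) of the intergenic regions among the 1037 highest of each replicate; points are the 4 replicates and bars their means. The motifs are named by factor and stand in the order of the text. The MEIS core averaged 10.1% at summits and 3.23% on flanks, whereas the homeodomain core averaged 1.84% and 6%.

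Whether these sequence features set intergenic peaks apart from promoter or intronic peaks was asked with Fisher's exact test, two-sided, for 11 features against each class and with adjustment over all 22 tests. None of 11 differed from promoter peaks after adjustment, where 4 had an unadjusted p under 0.05. None differed from intronic peaks, where 1 had an unadjusted p under 0.05. These p-values do not show that the classes are alike, as the intervals that follow are wide.

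TGACAG was in 13.6% of members and 7.93% of promoter peaks, an odds ratio of 1.83 (95% interval 1.13 to 3.00; adjusted p = 0.114, Fisher's exact test). TGATTGAT was in 5.28% and 1.63%, with an odds ratio of 3.35 (1.33 to 9.56; adjusted p = 0.105, Fisher's exact test). TGATNNAT was in 13.1% and 7.93%, with an odds ratio of 1.74 (1.07 to 2.87; adjusted p = 0.134, Fisher's exact test). All of these leaned towards the intergenic class without passing the test. In each replicate's own regions the same motifs were higher in the intergenic than in the promoter class in 4 of 4 replicates. The mean differences were 3.42 points ± 1.21 for TGACAG, 2.02 ± 1.21 for TGATTGAT and 4.61 ± 1.49 for TGATNNAT (SD, n = 4; exact sign-flip permutation p = 0.13 each, the smallest possible).

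With promoters drawn as 500 bp instead of 1000 bp, TGACAG (odds ratio 2.23), TGATTGAT (8.19), TGATNNAT (2.31) and GAGAGAGA (2.20) passed the test (adjusted p = 0.0173, 0.0108, 0.0173 and 0.0269, Fisher's exact test), so the definition of a promoter decides these calls. Against intronic peaks the direction of TGATNNAT was the opposite, with 13.1% of members and 20.3% of intronic peaks (odds ratio 0.59, interval 0.36 to 0.96; adjusted p = 0.134, Fisher's exact test). That direction was not shared by all replicates, as members were higher in 1 of 4.

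**Figure D3:**
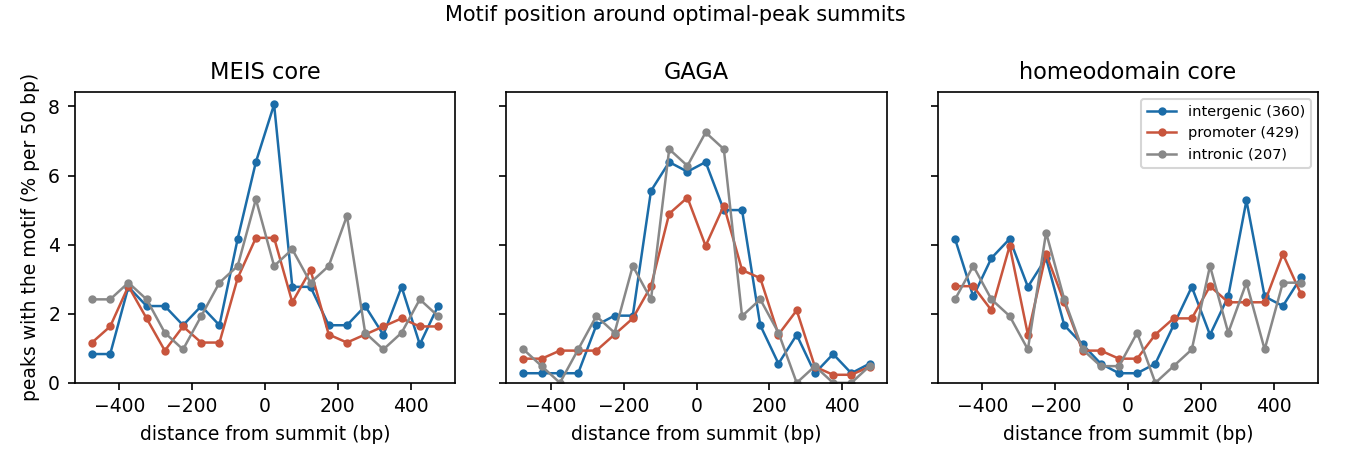
Percent of optimal peaks with TGACAG (MEIS core), GAGAGAGA (GAGA) and TAATTA (homeodomain core) in each 50 bp bin of distance from the summit, for 360 intergenic, 429 promoter and 207 intronic peaks. The MEIS core reaches 8.06% of intergenic peaks in the bin just above the summit, GAGA forms a broader rise, and TAATTA dips at the summit in all 3 classes.

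Sequence that could hold a member made up 25.1 Mb, or 25% of the genome, and members were unevenly spread over it. There were 14.3 members per Mb of such sequence in all, with 17.4 on chromosome I, 16.7 on II, 16.5 on III, 9.56 on IV, 11.2 on V and 17.3 on X. Chromosomes IV and V thus had the lowest densities, and promoter peaks were likewise sparsest there, at 14.1 and 12.2 per Mb of promoter sequence. X held 99 members, or 27.5%, in 22.8% of the qualifying sequence. Promoter peaks had 21.7% of their number on X, which holds 14.5% of promoter sequence, at 28.4 per Mb on X and 19.1 per Mb in all. The difference between the classes in their share on X did not pass the test (odds ratio 1.37, interval 0.98 to 1.92; adjusted p = 0.185, Fisher's exact test). In the replicates' own regions the share on X was higher in the intergenic than in the promoter class in 4 of 4, by 8.34 points ± 3.88 (SD, n = 4; exact sign-flip permutation p = 0.13, the smallest possible). This difference in shares does not allow for the amount of sequence, and per Mb of its own sequence X stood further above the whole for promoter peaks than for members.

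**Figure D4:**
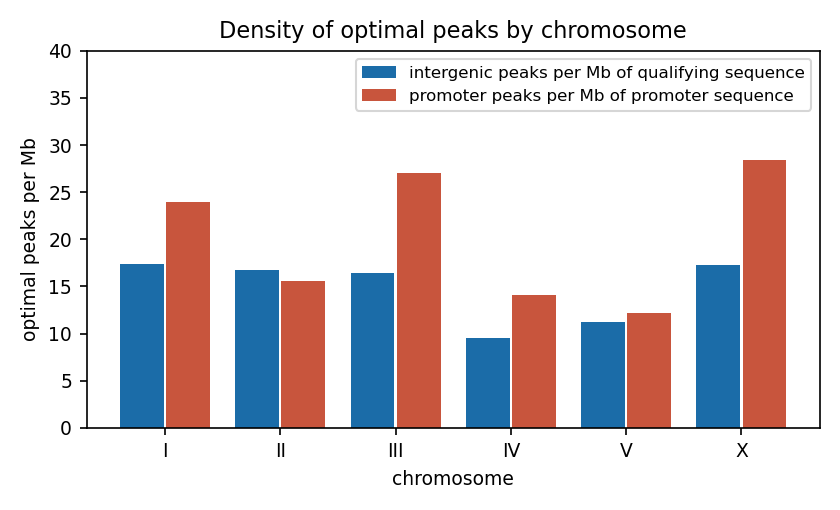
Optimal peaks per Mb by chromosome, for intergenic peaks over qualifying intergenic sequence and for promoter peaks over promoter sequence. Intergenic density runs from 9.56 on chromosome IV to 17.4 on chromosome I, and promoter density from 12.2 on V to 28.4 on X.

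Summits lay a median of 2534.5 bp from the nearest protein-coding start, with a range of 567 to 13362 bp. They were upstream of that start in 267 members and downstream of the gene in 93. Gaps whose flanking genes both pointed into them (convergent) held 34 members at 8.21 per Mb. Divergent gaps held 116 at 15.5 per Mb, and gaps between genes in the same direction held 209 at 15.6 per Mb. Convergent gaps, which contain gene ends and no starts, thus had the lowest density of the 3. By distance, and with no test, TGACAG was in 14.4% of the 118 members under 2000 bp from a start, 12.2% of the 180 from there to under 5000 bp, and 16.1% of the 62 farther away.

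The position limit cuts through a continuous range. Just inside it were members 1006 bp upstream of C25F6.6 (signal 40.8), 1011 bp upstream of ugt-50 (121.0) and 1017 bp upstream of mstr-1 (72.7). Just outside it were promoter peaks 995 bp upstream of ccb-1 (45.4), 991 bp upstream of dhs-8 (47.9) and 979 bp upstream of hint-3 (59.4). The farthest members lay 13362 bp upstream of irld-18, 11554 bp and 10880 bp upstream of egl-27, 11532 bp from the start of snt-1 and 11216 bp upstream of F57G12.1.

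Members clustered in some gaps between protein-coding genes. The 360 members fell in 301 gaps, of which 264 held 1 member and 37 held 2 or more, with 96 members in all. The gap between snt-1, which encodes a synaptotagmin of synaptic vesicles, and egl-27, which encodes an MTA-type chromatin protein, held 10 members in 18574 bp on chromosome II. Their summits spanned 8921 bp, and the signal ran from 41.2 to 165.4. The strongest lay 11554 bp upstream of the nearest egl-27 start and ranked 17, 22, 49 and 55 in replicates 1 to 4. A further member 9074 bp upstream (signal 91.9) ranked 134, 71, 224 and 171. Of the 10, 3 were supported by all 4 replicates and 1 by 1 replicate, so the cluster as a whole was not equally firm.

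**Figure D5:**
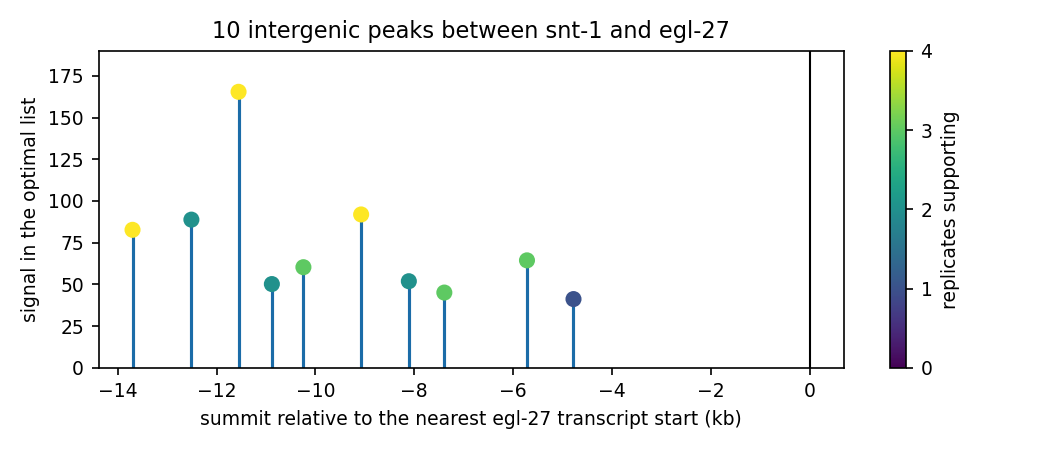
The 10 intergenic peaks between snt-1 and egl-27, by distance of the summit from the nearest egl-27 transcript start (kb, start at 0) and signal in the optimal list; colour gives the number of supporting replicates. The peaks supported by all 4 replicates have signals of 82.7, 165.4 and 91.9.

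Smaller clusters of 4 members each lay between F45D3.1 and F45D3.2 (signal 51.4 to 85.8), between Y49A3A.4 and unc-39 (46.0 to 78.4) and between asp-13 and ZC190.4 (42.1 to 72.6). In the gap upstream of unc-39, which encodes a Six-type homeodomain protein, the strongest member ranked 285, 90, 238 and 689. A pair of members in that gap, with summits at chromosome V positions 14368452 and 14368676, had the same ranks (404, 220, 245 and 2492), because both overlapped the same replicate regions. Over all members, 6 overlapped another member, and 14 shared a run of 20 bases with another member's summit window, 5 of them near a tRNA gene.

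Of 12 Hox and TALE homeobox genes, 2 (16.7%) were nearest to a member, beside 315 of all 19973 protein-coding genes (1.58%), and 5 were nearest to a promoter peak. The nearest start belonged to such a gene for 4 members, 2 at unc-62 and 2 in the 19027 bp gap between the Hox genes lin-39 and ceh-13, which encode proteins of the Sex combs reduced and Labial types. The latter lay 2568 bp upstream of ceh-13 (signal 55.4; ranks 440, 1019, 1181 and 2179) and 6443 bp upstream (54.1; ranks 358, 14514, 260 and 3758). Each was within the 1037 highest regions of 2 replicates, a different pair in each case. For the 2 members at unc-62, the part of the unc-62 transgene was not tested. A member near ceh-43, a gene of the Distal-less type, had a signal of 38.9 and the support of 1 replicate. None of 14 heterochronic protein-coding genes, which time larval cell fates, was nearest to a member, and 4 were nearest to a promoter peak, beside 409 of all protein-coding genes. Members lay in gaps beside such genes all the same, with signals of 60.3 and 73.8 in the gaps on each side of hbl-1 and of 52 and 51.3 in the gap between cbl-1 and lin-41.

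For other families, matched by gene symbol, the share to compare with is the 1.58% over all protein-coding genes. Of 39 bHLH genes, 5 (12.8%) were nearest to a member. They were hif-1, the hypoxia-inducible factor gene (signal 100.3; ranks 40, 293, 235 and 2188), mml-1, of the Myc and Mondo type (74.4; ranks 88, 545, 2951 and 3436), and mxl-3, of the Max type (59.5; ranks 366, 249, 18558 and 156). The others were hlh-10 (52.4; ranks 554, 140, 2542 and 1120) and mdl-1, of the Mad type, with 3 members (70.5, 54.2 and 41.1). No bHLH member was within the highest 1037 regions of all 4 replicates. Nuclear hormone receptor genes were nearest for 8 of 274 (2.92%), collagen genes for 3 of 174 (1.72%), chemoreceptor genes for 5 of 1365 (0.366%) and F-box genes for 2 of 322 (0.621%). None of 81 ribosomal protein genes and none of 72 histone genes was nearest to a member. At a share of 1.58% families of this size would hold few such genes, so counts of 0 do not set them apart. Of the same families, 15 and 2 genes were nearest to a promoter peak, beside 409 of all 19973 protein-coding genes. The families differ in the amount of intergenic sequence beside their genes, which was not tested, and no test was made of these counts.

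Non-coding genes did not count as genes in the rule, and 48 members (13.3%) had their summits in one, a share close to the 13.8% of qualifying sequence that such genes cover and the 12.6% of promoter peaks. These were 37 in genes annotated as ncRNA, 6 in tRNA genes, 4 in lincRNA genes, 3 in snoRNA genes and 1 in a microRNA gene, where a summit can lie in more than 1. Genes annotated as ncRNA covered 1.72% of qualifying sequence and held 10.3% of members, beside 4.97% of other intergenic regions of the merged list. They held 11.4% of promoter peaks and 8.21% of intronic peaks, so this share was not particular to members. Pseudogenes covered 10.7% of qualifying sequence and held 0 of 360 summits, which allows a share of up to 0.833%, beside 3.12% of the other intergenic regions. The limit is that of 3 counts and covers counting error alone. Pseudogenes held 0.466% of the summits of promoter peaks and 0% of those of intronic peaks. How much promoter and intronic sequence pseudogenes or genes annotated as ncRNA cover was not computed, so these shares cannot be set against it.

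A tRNA gene lay within 500 bp of 18 members (5%), 14 of them on X. That compares with 0.733% of qualifying sequence, 1.47% of the other intergenic regions, 0.699% of promoter peaks and 2.90% of intronic peaks. All 6 members with summits in tRNA genes were on X, and 5 of them held GTTCGANNC. Those printed above had signals of 66.7 and 57.2, with the support of 2 and 1 replicates. The others had signals of 44.3, 41.8, 38 and 37.6, with the support of 1, 3, 0 and 1. The share of all tRNA genes that lies on X was not computed, so these counts alone do not tie such members to X. GTTCGANNC was in 9 members and 2 promoter peaks, an odds ratio of 5.46 (interval 1.12 to 52.3; adjusted p = 0.134, Fisher's exact test). Against intronic peaks the odds ratio was 0.859, with 2.5% of members and 2.90% of intronic peaks (interval 0.269 to 2.98; adjusted p = 0.944, Fisher's exact test).

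A microRNA gene lay within 500 bp of 6 members (1.67%), beside 0.432% of qualifying sequence, 0.542% of the other intergenic regions, 0.932% of promoter peaks and 1.93% of intronic peaks. The strongest of them lay 461 bp upstream of cel-mir-241, a microRNA of the let-7 family that times larval cell fates, in the gap of unc-39, with a signal of 78.4 and the support of all 4 replicates. The member 148 bp upstream of cel-mir-53 had a signal of 60.5 and the support of 3. Members at cel-mir-8209 (57.9), cel-mir-79 (51.3), cel-mir-230 (48.6) and cel-mir-52 (38.1) had the support of 2 each. A pair of members lay beside the spliced leader genes sls-2.2 and sls-2.3, with signals of 72.4 and 50.5. They were the members with an snRNA gene within 500 bp (0.556%), beside 0.154% of qualifying sequence and 1.63% of promoter peaks. Genes of piRNAs, small RNAs of the germline, are in this species concentrated on chromosome IV. They lay within 500 bp of 17 members (4.72%), 15 of them on IV, beside 8.33% of qualifying sequence. The same held for 7.46% of the other intergenic regions, 2.33% of promoter peaks and 1.45% of intronic peaks. No summit lay in a piRNA gene. Such genes cover 0.516% of qualifying sequence, and the limit of 0.833% that a count of 0 allows is above that share, so a difference was not detectable.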

How the data were processed

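Peak lists on ce11 were used, 1 per replicate (30000, 30000, 30000 and 28073 regions), 1 for the merged replicates and 1 of optimal peaks, cut by irreproducible discovery rate according to the deposited notes. The authors' signal per region and the summit offset were taken as deposited. Signal scales differed between lists, so regions were ranked within a list. Aligner and peak caller: not given in the sources used here. No read counts are in the lists, and sequencing depth is therefore unknown.

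Summits were assigned to 1 class by priority (promoter, 5' UTR, coding exon, 3' UTR, intron, intergenic) with Ensembl release 115, and windows were read from the RefSeq WBcel235 assembly. Coordinates are 1-based. Motifs were searched within 50 bp of the summit and around a point 250 bp away. Fisher's exact, exact McNemar and exact sign-flip permutation tests were run with scipy 1.17.1 in Python 3.11.15, with a Benjamini-Hochberg threshold of 0.05. Of these, Fisher's exact test with its adjustment was tried beforehand on simulated data, with group sizes and shares other than those of these peaks. The McNemar and sign-flip tests were not tried on simulated data. Intervals are at 95%, exact, and cover counting error. Those of the flank ratios came from the totals of summit and flank windows, without the pairing that the McNemar test uses.

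Genes were named by rule: the nearest gene of the 20 strongest members, the gaps with most members, the 5 farthest members, the 3 on each side of the position limit, members at Hox, TALE, heterochronic or microRNA genes, and families by symbol. Members at bHLH genes, ceh-43, spliced leader genes and tRNA genes were singled out after their values were seen. The rule, lists and motifs were chosen with earlier results of these data known. Alternatives changed the promoter limit, window, flank, summit, gene set, list depth, support and replicates.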

Additional observations from a re-analysis of the deposited data

Results flagged for a closer look

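The share of TGATNNAT in windows on both flanks of the intergenic regions was 8.54% in replicate 2 and lay between 6.83% and 6.93% in the other replicates, so that replicate 2 stood apart from them by a gap larger than Dixon's 95% limit for 4 samples. Among 19 sets of 4 values tested in this way chance flags about 1 in 20. The cause was not tested.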

How the results depend on the processing

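The count of 360 members fell to 171 with the optimal peaks above the list's median signal, and to between 58 and 110 when peaks had to be among the 1037 highest regions of the 3 replicates left after leaving out each in turn. The count of motifs that differed between summits and flanks was 5 in all, 6 with promoter limits of 500 or 2000 bp and with windows of 100 bp on each side, 4 with windows of 25 bp, 2 among peaks above the median signal, and between 0 and 2 without each replicate in turn, where fewer peaks were tested. The TGACAG ratio rose to 11 without replicate 1 with an adjusted p of 0.0508 (exact McNemar test), and TGACAG passed without replicate 2, 3 or 4. With 1 member per gap, an alternative chosen after seeing the data, 5 motifs passed. The count of features that differed from promoter peaks was 0 in all, 4 with a promoter limit of 500 bp, 2 with windows of 100 bp on each side (TGATTGAT and TGATNNAT), and between 0 and 1 without each replicate in turn, where the X chromosome passed without replicate 1 (odds ratio 3.91, adjusted p = 0.0256, Fisher's exact test). Of the odds ratios under alternatives, 260 kept direction and side of the threshold, 7 kept direction and newly passed, and 32 changed direction; of the ratios to flanks, 73 kept both, 5 newly passed, 22 no longer passed and 1 changed direction. No result that changed direction passed the test in either form, and the cause was not tested. Of the 156 replicate differences, 9 changed sign.

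The odds ratios that changed direction against promoter peaks were as follows. With a promoter limit of 500 bp they were 0.967 for CACGTG, 1.19 for TAATTA and 1.04 for signal above the median. CACGTG was at 0.938 with every gene but piRNA genes counted as genic, 0.823 among peaks above the median signal, 0.745 with windows of 100 bp and 0.942 on autosomes. Support in all 4 replicates was at 0.896 with a list depth of 2074 regions and 0.839 on autosomes. Without each replicate in turn the range was 0.995 to 1.51 for GAGAGAGA, 0.868 to 4.76 for CACGTG and 0.861 to 1.84 for signal above the median.

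Against intronic peaks, CACGTG was at 0.999 with a limit of 500 bp, 0.676 with windows of 100 bp and 0.930 on autosomes. TGATTGAT was at 0.971 with a limit of 2000 bp and 0.963 on autosomes, where signal above the median was at 0.970 and 0.880. TAATTA was at 1.15 with windows of 25 bp and GAGAGAGA at 0.839 with windows of 100 bp. Support in all 4 replicates was at 0.747 with a smaller list depth of 518, 0.888 with 2074 and 0.892 on autosomes. Without each replicate in turn the range was 0.668 to 1.35 for TGATNNAT, 0.744 to 1.08 for GAGAGAGA, and 0.656 to 1.99 for both CACGTG and TGATAA. The ratio of GTTCGANNC to its flank was 0.6 with every gene but piRNA genes counted as genic.

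No paired analysis was possible because there is no further group of samples to pair with; the pairs tested were windows or classes within a sample. Depth is unknown, and no untagged control was analysed here.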
